A study of Mus musculus with 4 samples.

Results

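The complement genes described here are 9 genes of the complement system that were listed by symbol: C1qa, C1qb, C1qc, C3, Cfb, Cfp, C6, C3ar1 and C5ar1. All 9 were found among the 31053 genes of the matrices. They were followed across cell types and between treatments in immune cells sorted from mouse pancreatic tumours. The list holds 3 chains of the recognition molecule C1q, 3 proteins of the C3 convertase and its amplification, 1 terminal component and 2 receptors.

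Complement is a cascade of plasma and tissue proteins that marks cells and debris for removal. C1q binds antibody complexes and dying cells and starts the classical pathway; C3 is the central protein that every pathway cleaves, and factor B and properdin build and hold the convertase that amplifies this cleavage. The released fragments C3a and C5a act on myeloid cells through their own receptors, while C6 belongs to the late components that assemble into the membrane attack complex. The liver makes most plasma complement, whereas C1q is made mainly by macrophages and is widely used as a marker of tumour-associated macrophages.

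The AT38 group held 2 libraries from C57BL/6 mice given AT38, for which the labels give a code name and no structure, at 30 mg/kg per day, split over a pair of intraperitoneal injections each day for 7 days in 1% carboxymethyl cellulose. The vehicle group held 2 libraries from mice of the same strain given the same carrier on the same schedule without AT38. All mice carried orthotopic tumours of the B6KPC3 pancreatic cancer line, which were 7 days old when treatment began, and each library pooled cells of 4 mice after enrichment for CD45, the pan-leukocyte surface protein. The library was therefore the replicate, the p-values below measure the spread between pooled libraries, and differences between single mice were not measured. Ages and sexes of the mice are not given in the labels, and the title of the series names interruption of nitrosative stress and tumour-specific T cells as its subject.

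The libraries held 24294215 to 34386076 unique molecular identifiers (UMIs, 1 per captured transcript) and 2910 to 4732 cells after quality control, with a median of 3013.5 to 4154 UMIs per kept cell. Ptprc, the gene of CD45, had a UMI in 88.8% of the 14256 kept cells. Cells were grouped by expression with the 9 complement genes left out, so that no cell type was defined by them, and 28 of the 30 clusters were named from marker genes. Macrophages numbered 392 and 252 cells in the AT38 libraries and 323 and 531 in the vehicle libraries, monocytes 162 and 107 with AT38 against 99 and 199 with vehicle, and neutrophils 954 and 835 with AT38 against 1021 and 1682 with vehicle. Macrophages and monocytes together are called mononuclear phagocytes. Of the barcode sequences, 24 occurred in 2 libraries, 15 of them among kept cells.

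The 9 genes gave 129700 UMIs in all barcodes. Levels are given as CPM, the UMIs of a gene scaled to the summed UMIs of a cell type in a library, and pairs of values run in the order of the library numbers. Fibroblasts had the highest C3 and Cfb, macrophages the highest C1qa, C1qb, C1qc, C6 and C3ar1, conventional dendritic cells type 2 (cDC2) the highest Cfp and neutrophils the highest C5ar1.

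**Figure D1:**
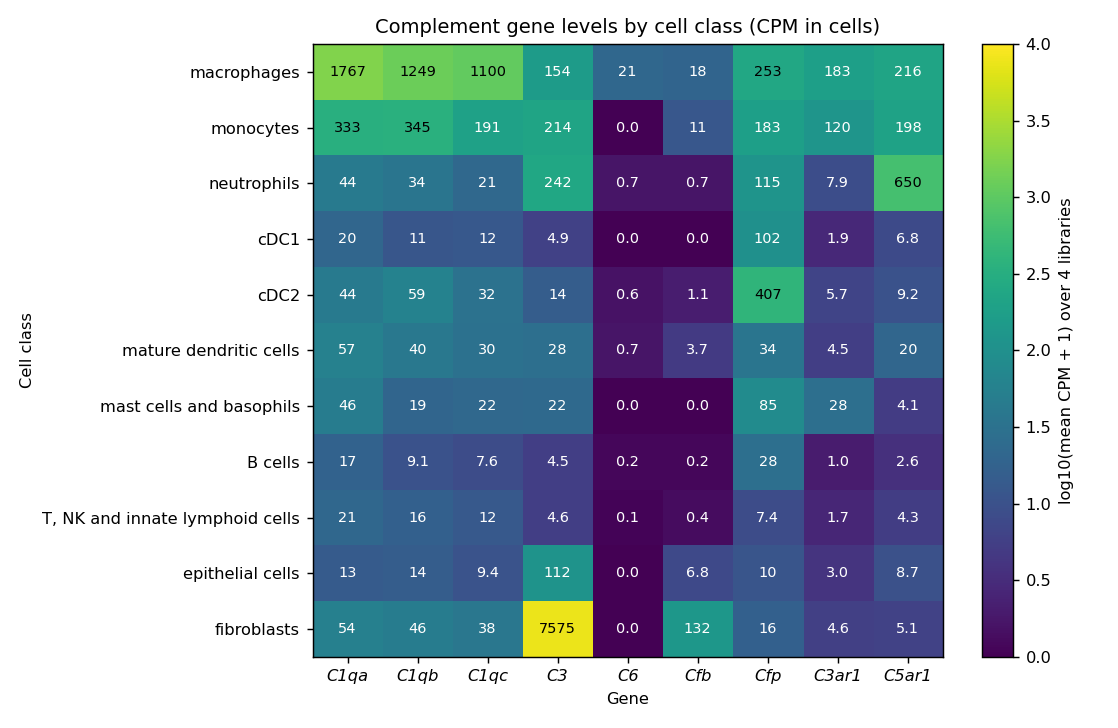
Mean level of each complement gene in CPM over 4 libraries (number in each cell, colour on a log10 scale) in 11 cell types. The C1q chains lie in macrophages and at a lower level in monocytes, C3 peaks in fibroblasts at 7575 CPM, and C5ar1 peaks in neutrophils at 650 CPM.

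C1qa, C1qb and C1qc encode the chains that assemble into C1q. The 3 genes lie next to each other on the minus strand of chromosome 4 (mm10): C1qb at chr4:136880129-136886187, C1qc at chr4:136889804-136893065 and C1qa at chr4:136895917-136898803, with 3616 and 2851 bases between neighbours. Macrophages, which were 10.5% of the kept cells, held 85.7% of the C1qa UMIs and 82.3% of the C1qb UMIs. C1qa averaged 1767 ± 530 CPM in macrophages and 333 ± 36.2 CPM in monocytes (SD, n = 4 libraries), and no other cell type averaged above 57.2 CPM. The macrophage and monocyte ranges were apart from each other and from the remaining cell types for all 3 chains. Among the remaining types, neighbours in the order had ranges that overlapped.

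Because these neighbouring genes were high in the same cells, the DNA before their start sites is shown, on the strand of the genes and in the 5′ to 3′ direction (RefSeq start sites, GRCm38.p6, which is the assembly of mm10). The C1qb stretch is chr4:136886201-136886450 and the C1qc stretch is chr4:136893066-136893164, the part of the 250 bases before each RefSeq start that lies outside the annotated gene. Capitals mark the single match found in the promoters of the genes, CTTCCTC, which reads GAGGAAG on the opposite strand, a motif of the myeloid factor PU.1.
C1qb: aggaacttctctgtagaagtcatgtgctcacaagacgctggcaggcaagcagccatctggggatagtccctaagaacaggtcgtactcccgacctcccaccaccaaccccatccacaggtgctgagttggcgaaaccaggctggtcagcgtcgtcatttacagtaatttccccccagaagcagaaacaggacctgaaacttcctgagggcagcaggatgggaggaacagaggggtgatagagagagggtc
C1qc: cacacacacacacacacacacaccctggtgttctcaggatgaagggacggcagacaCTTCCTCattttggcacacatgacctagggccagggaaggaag
Of the 9 genes, 7 had a promoter entry of 250 bases before to 50 after the start; C1qa and Cfb had none. Both strands of these 7 were searched for the PU.1 letters GAGGAAG, which 13.63% of 32851 mouse promoters of the same length hold, for the core of the interferon-stimulated response element (3.443%) and for a kappaB motif (0.4109%). The match in C1qc begins 194 bases before the start, and a match of letters is a description and not a bound site.

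In macrophages C1qa and C1qc rose with AT38, and C1qb had a change of similar size that missed the threshold. C1qa stood at 2096 and 2313 CPM in the AT38 libraries and at 1168 and 1491 CPM in the vehicle libraries. C1qc stood at 1342 and 1454 CPM with AT38 and at 721 and 884 CPM with vehicle. C1qb stood at 1400 and 1677 CPM with AT38 and at 843 and 1076 CPM with vehicle. For each of the 3 chains both AT38 libraries were above both vehicle libraries, and the groups did not overlap. How often the groups were apart over all genes tested was not counted. Groups that are apart, here and below, are therefore a description and not a test.

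The log2 fold changes in macrophages, AT38 over vehicle with the standard error of the model, were 0.74 ± 0.13 for C1qa (edgeR quasi-likelihood test with Benjamini-Hochberg adjustment over all genes tested in the cell type, adjusted p = 0.0365), 0.81 ± 0.12 for C1qc (adjusted p = 0.0168) and 0.69 ± 0.15 for C1qb (adjusted p = 0.0903). Of the 9 genes tested in macrophages, 4 were higher at an adjusted p under 0.05, against 0.612% of all 10621 genes tested there. The 4 were C1qa, C1qc, C6 and Cfb; none was lower, and 1.14% of all genes were called in either direction. In mononuclear phagocytes the same 4 were called higher, against 0.694% of 10810 genes, with a log2 fold change of 0.62 ± 0.10 for C1qa (edgeR adjusted p = 0.0235), 0.72 ± 0.10 for C1qc (0.0108) and 0.57 ± 0.12 for C1qb (0.0649). The median log2 fold change of the 9 genes was 0.69 in macrophages, beside 0.00 over all genes tested. The 9 genes were chosen with earlier results of these data known, so these shares and medians are no test of the list.

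With 2 libraries a group, these calls depended on single libraries. In macrophages C1qa and C1qc were no longer past the threshold without AT38 2, without vehicle 1 or without vehicle 2, with log2 fold changes of 0.56 to 0.93 for C1qa and 0.66 to 0.97 for C1qc over the 4 omissions. The number of the 9 genes called was then 1 without AT38 2, 1 without vehicle 1 and 0 without vehicle 2, beside 5 without AT38 1.

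**Figure D2:**
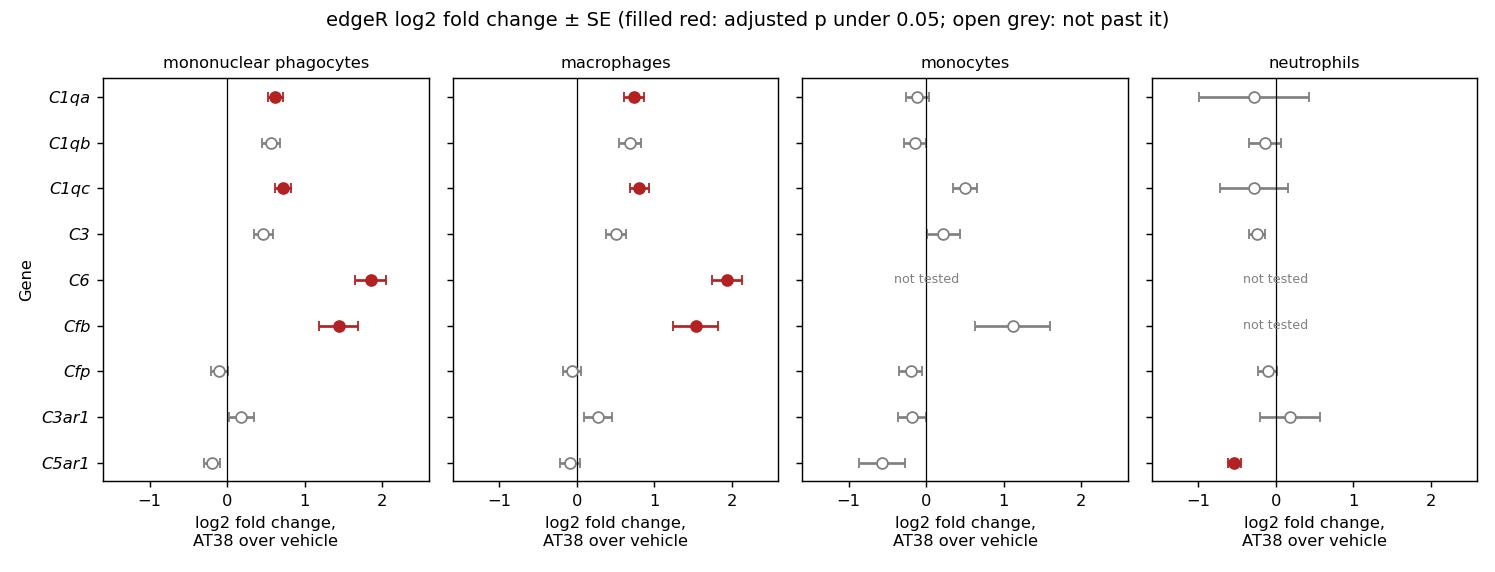
Log2 fold change of each complement gene, AT38 over vehicle, with the standard error of the edgeR model, in mononuclear phagocytes, macrophages, monocytes and neutrophils; filled red points passed an adjusted p of 0.05 and open grey points did not. C1qa, C1qc, C6 and Cfb passed in phagocytes and in macrophages, and C5ar1 passed in neutrophils; C6 was not tested in monocytes and neutrophils, nor Cfb in neutrophils, for low counts.

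The macrophages comprised 3 clusters, named by a leading gene or by depth: 832 cells led by Arg1, the gene of arginase 1, 213 cells led by Folr2, a folate receptor gene of tissue macrophages, and 453 cells of few UMIs, with a median of 1114 per cell. In the Arg1 cluster C1qa stood at 1846 and 2195 CPM with AT38 and at 959 and 1301 CPM with vehicle. In the Folr2 cluster it stood at 3094 and 3307 CPM with AT38 and at 3333 and 3381 CPM with vehicle. In the Arg1 cluster the AT38 libraries were both above the vehicle libraries, and in the Folr2 cluster, where the gene was high throughout, both lay just below them.

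In the Arg1 cluster C1qc rose, with a log2 fold change of 0.95 ± 0.16 (edgeR adjusted p = 0.0356), while C1qa at 0.84 ± 0.16 (adjusted p = 0.0538) and C1qb at 0.78 ± 0.17 (adjusted p = 0.0899) missed the threshold. There 2 of the 9 genes were called, both higher, against 0.492% of 10165 genes; the other was Cfb. In the Folr2 cluster the log2 fold changes were -0.01 ± 0.22 for C1qa, 0.03 for C1qb and 0.04 for C1qc. None of the 8 genes tested there was called by edgeR, against 0.479% of 5632 genes; none had an unadjusted p under 0.05 and DESeq2 called none. In the cluster of few UMIs 0 of 7 were called by edgeR, against 0.0544% of 3675 genes. Of these 7, 2 had an unadjusted p under 0.05 and DESeq2 called 0. C1qa stood there at 1828 and 1706 CPM with AT38 and at 1614 and 1223 CPM with vehicle. C1qa, C1qb and C1qc together stood there at 3867 and 3991 CPM with AT38 and at 4064 and 2554 CPM with vehicle. For this sum the groups overlapped, with vehicle 1 above both AT38 libraries. The difference between the Arg1 and Folr2 clusters was tested itself: the AT38 effect in the Arg1 cluster minus that in the Folr2 cluster was 0.89 ± 0.24 for C1qa (edgeR interaction, adjusted p = 0.235), 0.78 ± 0.24 for C1qb (0.403) and 0.95 ± 0.24 for C1qc (0.186). None of the 9 passed, against 0.0217% of 9232 genes; C1qa, C1qb and C1qc had unadjusted p-values under 0.05, of 0.000738, 0.00259 and 0.000503, and no other tool was run on this difference.

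**Figure D3:**
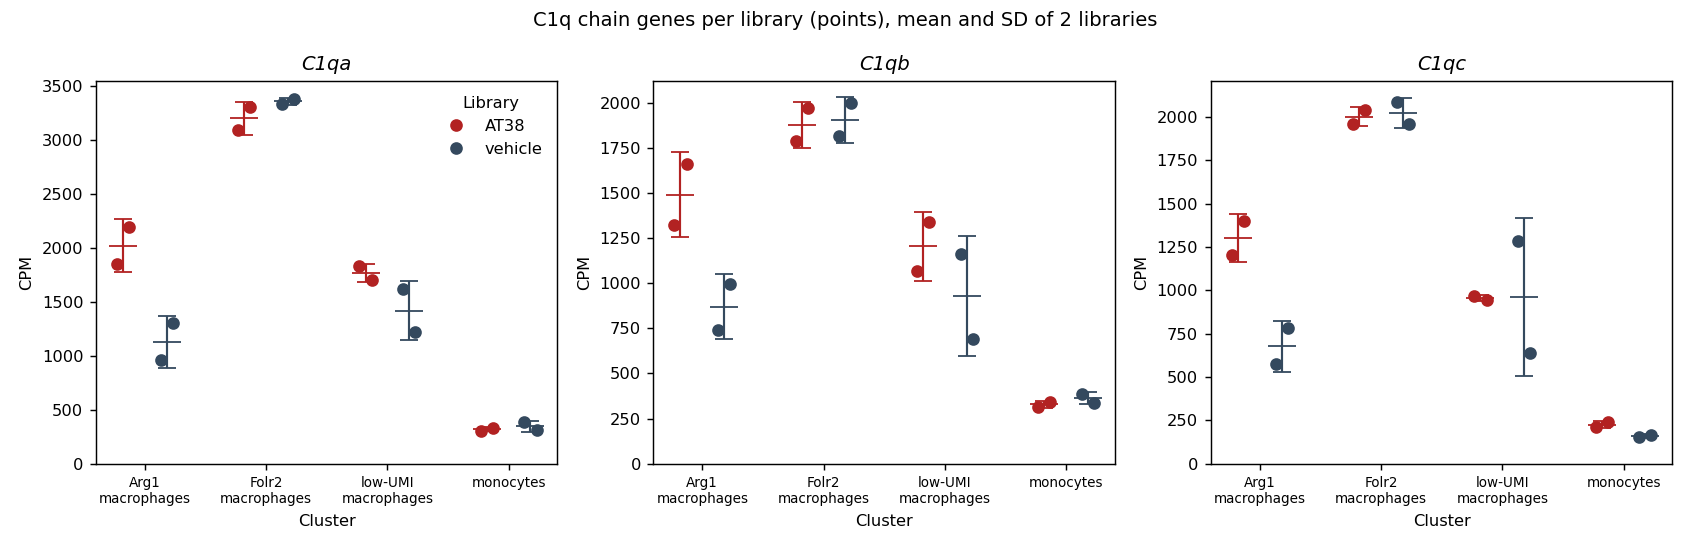
C1qa, C1qb and C1qc in CPM per library (points) with the mean and SD of 2 libraries, in the 3 macrophage clusters and in monocytes, AT38 left of vehicle. The AT38 points lie above the vehicle points in the Arg1 cluster for all 3 chains, while in the Folr2 cluster both groups lie between 3094 and 3381 CPM for C1qa.

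The clusters made up different parts of the phagocytes in the treatment groups. The Arg1 cluster was 33.2% and 31.5% of mononuclear phagocytes in the AT38 libraries and 47.6% and 45.8% in the vehicle libraries, and the Folr2 cluster was 15% and 9.75% with AT38 against 7.82% and 8.49% with vehicle; clusters drawn from the same cells are given here as values and not as a test. With every library given the same UMI share of each macrophage cluster, C1qa was 2005 and 2307 CPM with AT38 and 1306 and 1563 CPM with vehicle, and the log2 ratio of the group means was 0.59, beside 0.73 with the clusters as they were; for C1qc these ratios were 0.66 and 0.80. The 9 macrophage marker genes used for naming, none of them a complement gene, also moved with the treatment. They summed to 8079 and 8999 CPM in AT38 macrophages and to 4836 and 6191 CPM in vehicle macrophages, with all 9 detected in each library. Of the other marker lists summed in the same cells, the 7 cDC2 markers were higher with AT38 without overlap, at 1152 and 1424 CPM with AT38 and 609 and 846 CPM with vehicle, with all 7 detected in each library. The 6 B cell markers were lower without overlap, at 22.3 and 9.82 CPM with AT38 and 92.9 and 40.5 CPM with vehicle, with 4 of the 6 detected in AT38 2 and all 6 in the other libraries. The groups overlapped for the neutrophil markers (2512 and 3038 CPM with AT38, 2824 and 3166 CPM with vehicle) and for the monocyte, T cell, epithelial and fibroblast lists. What part these levels had in the C1q difference was not tested.

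Per cell, more macrophages held C1qa with AT38. With every cell thinned to 1000 UMIs, C1qa was found in 64.6% (95% exact binomial interval 59.2 to 69.7) and 69.8% (63.1 to 75.9) of macrophages in the AT38 libraries. In the vehicle libraries it was found in 48.2% (42.3 to 54.2) and 54.3% (49.6 to 58.9). The intervals of the AT38 libraries lay above those of the vehicle libraries, although they cover counting error only; 39 to 65 shallower macrophages per library were left out. Without thinning the shares were 75.0% and 75.4% with AT38 and 64.7% and 70.8% with vehicle. A UMI of all 3 chains was found in 40.8% and 41.0% of thinned AT38 macrophages and in 23.2% and 26.4% of vehicle macrophages. In the Folr2 cluster 93.8% and 97.1% of thinned cells held C1qa with AT38, and 90.9% and 93.5% with vehicle.

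Lymphoid cells, which are not known as a source of C1q, gave a measure of background in the droplets. Among T, NK and innate lymphoid cells thinned in the same way, 2.28% and 1.02% held a C1qa UMI with AT38 and 1.41% and 2.72% with vehicle. Their C1qa level was 26.2 and 10.1 CPM with AT38 and 22.5 and 24.0 CPM with vehicle, and neutrophils, at 59.6 and 24.2 CPM with AT38 against 31.4 and 61.3 CPM with vehicle, overlapped with it. cDC2 overlapped with it too, at 24.9 to 54.8 CPM of C1qa beside 10.1 to 26.2 CPM in lymphoid cells over the libraries. In CPM, C1qb in both types lay above that in lymphoid cells, which had 15.7 ± 6.13 CPM (SD, n = 4). cDC2 had 58.9 ± 8.89 CPM and neutrophils 34.4 ± 7.18 CPM of C1qb, both far below monocytes. Neutrophils held fewer UMIs per cell, with library medians of 1955 to 2313 beside 3669 to 4548 in lymphoid cells. Counted per cell, C1q UMIs of all chains were 0.33 and 0.17 in neutrophils with AT38 and 0.21 and 0.30 with vehicle. Lymphoid cells had 0.34 and 0.14 with AT38 and 0.27 and 0.25 with vehicle, so neutrophil C1q was not shown to lie above background.

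The proportions of the 3 chains in macrophages were alike in both groups. C1qa made up 43.3% and 42.5% of the C1q UMIs of macrophages with AT38 and 42.7% and 43.2% with vehicle, and C1qc made up 27.7% and 26.7% with AT38 against 26.4% and 25.6% with vehicle. In monocytes C1qc made up 25.4% and 26.1% of the C1q UMIs with AT38 and 16.4% and 20.3% with vehicle, so the groups did not overlap. The monocyte C1qc level was 212 and 238 CPM with AT38 and 151 and 165 CPM with vehicle, a log2 fold change of 0.49 ± 0.15 (edgeR unadjusted p = 0.00491, adjusted p = 0.301). Monocyte C1qa, at 304 and 333 CPM with AT38 and 384 and 310 CPM with vehicle, overlapped between groups.

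No complement gene passed the threshold in monocytes. Of the 8 tested, edgeR called 0, against 0.25% of 7187 genes; 2 had an unadjusted p under 0.05, C1qc and Cfb, and DESeq2 called 0. The AT38 effect in macrophages minus that in monocytes was 0.85 ± 0.22 for C1qa (edgeR interaction, adjusted p = 0.507) and 0.82 ± 0.18 for C1qb (adjusted p = 0.172). None of the 8 genes with an estimate passed that test, against 0.0313% of 9587 genes, and 4 had an unadjusted p under 0.05: C1qa, C1qb, C1qc and C3ar1; no other tool was run on it. C6 had no UMI in monocytes and gave no estimate.

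C3, the protein on which all activation pathways converge, lies at chr17:57203970-57228136 on the minus strand. Its highest level was in fibroblasts, at 9950 and 9697 CPM with AT38 and 6022 and 4632 CPM with vehicle. These values come from 14 and 6 cells with AT38 against 6 and 11 cells with vehicle that escaped the CD45 sort, too few for a test, and 5 cells held 38.8% of the UMIs. Among immune cells C3 averaged 242 ± 19.4 CPM in neutrophils, 214 ± 45.8 CPM in monocytes and 154 ± 32.9 CPM in macrophages (SD, n = 4 libraries), with ranges that overlapped between neighbours in this order.

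In neutrophils C3 stood at 221 and 243 CPM with AT38 and at 267 and 237 CPM with vehicle, groups that overlapped (log2 fold change -0.24 ± 0.10, edgeR adjusted p = 0.196). In macrophages it stood at 189 and 171 CPM with AT38 and at 141 and 114 CPM with vehicle, groups that did not overlap (0.51 ± 0.13, adjusted p = 0.144). Neither change passed on its own. The difference between the cell types did: the AT38 effect on C3 in mononuclear phagocytes minus that in neutrophils was 0.72 ± 0.13 on the log2 scale (edgeR interaction with library terms, adjusted p = 0.00159). C3 was the only one of the 9 genes called in this comparison, against 1.41% of 10797 genes. The C3 levels of phagocytes were 189 and 197 CPM with AT38 and 155 and 126 CPM with vehicle, higher with AT38 in both libraries, whereas neutrophil C3 was lowest in AT38 1. The call held when each of the 4 libraries was left out. On plain CPM the log2 ratio of the mean C3 levels in neutrophils was -0.12, closer to 0 than the fitted change.

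In cDC2 the C3 level was low, at 13.3 and 5.05 CPM with AT38 and 14.0 and 23.4 CPM with vehicle. One of its clusters, led by the lectin gene Mgl2, had 4.41 and 2.67 CPM with AT38 and 14.1 and 24.3 CPM with vehicle, and C3 fell there by 2.31 ± 0.43 on the log2 scale (edgeR adjusted p = 0.023, against 0.325% of 8917 genes called lower). DESeq2 called no complement gene in this cluster, and the AT38 values were at the level of lymphoid cells, 3.33 to 6.05 CPM over the libraries.

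Cfb encodes factor B, the protease subunit of the alternative C3 convertase, at chr17:34856374-34862518 on the minus strand, 85 bases from C2, which encodes its counterpart of the classical pathway. The gene was sparse, with 505 UMIs in kept cells. Fibroblasts had 210 and 125 CPM with AT38 and 112 and 81.8 CPM with vehicle, and were not tested. Another annotated gene, Gm20547, overlaps Cfb on the same strand and had 0 UMIs in kept cells. How reads that fit both genes were counted was not tested, so the overlap may still have lowered the Cfb count.

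In macrophages Cfb stood at 22.3 and 32.1 CPM with AT38 and at 11.8 and 7.11 CPM with vehicle. Both AT38 libraries were above both vehicle libraries, and Cfb rose by 1.53 ± 0.29 on the log2 scale (edgeR adjusted p = 0.0478). In the Arg1 cluster alone Cfb had 25.0 and 32.0 CPM with AT38 and 11.9 and 6.90 CPM with vehicle, and it rose by 1.62 ± 0.28 (adjusted p = 0.0347). With the macrophage clusters held at fixed UMI shares the log2 ratio of group means was 1.54, beside 1.53 without. Monocyte Cfb, at 16.3 and 13.9 CPM with AT38 and 7.19 and 6.89 CPM with vehicle, did not overlap between groups but missed the threshold (1.11 ± 0.48, adjusted p = 0.629). In macrophages the Cfb call was lost in 7 of 13 alternatives, with log2 fold changes that stayed between 1.18 and 1.90. These were the omissions of AT38 2, vehicle 1 or vehicle 2, a minimum of 500 genes per cell, a limit of 20% mitochondrial UMIs, and the fits without the cluster of few UMIs or without the 5 cells that held the most Cfb UMIs.

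Cfp encodes properdin, which stabilises the alternative convertase, at chrX:20925454-20931555 on the minus strand. It was spread over myeloid cells in an order that the 4 libraries kept apart at each of the first steps: 407 ± 9.33 CPM in cDC2, 253 ± 20.2 in macrophages, 183 ± 16 in monocytes and 115 ± 10.1 in neutrophils (SD, n = 4). It differed little between treatments in these types. In cDC2 Cfp stood at 396 and 415 CPM with AT38 and at 414 and 403 CPM with vehicle (log2 fold change 0.05 ± 0.09, edgeR adjusted p = 0.917). In macrophages it stood at 268 and 227 CPM with AT38 and at 248 and 270 CPM with vehicle (-0.06, adjusted p = 0.934). The groups overlapped in both. B cells had 35.1 and 37.4 CPM with AT38 and 21.4 and 18.9 CPM with vehicle, groups apart but not past the threshold (0.90 ± 0.29, adjusted p = 0.181).

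C6, a component of the membrane attack complex, lies at chr15:4727175-4814967 on the plus strand. It was the rarest of the 9 genes, with 303 UMIs in kept cells, and it was found almost entirely in macrophages: 170 UMIs in 54 cells of the Folr2 cluster, 94 UMIs in 53 cells of the Arg1 cluster and 11 UMIs in the cluster of few UMIs. No other cell type averaged above 0.71 CPM. Monocytes had 0 UMIs of C6, which allows a level of up to 0.731 CPM, and cDC1, mast cells and basophils, epithelial cells and fibroblasts also had 0.

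In macrophages C6 stood at 32.8 and 32.6 CPM with AT38 and at 9.32 and 7.90 CPM with vehicle. The libraries of a group were close to each other and the groups were far apart, and C6 rose by 1.94 ± 0.20 on the log2 scale (edgeR adjusted p = 0.00322). In mononuclear phagocytes the change was 1.85 ± 0.20 (adjusted p = 0.00444). The call was lost without vehicle 2 (1.81 in macrophages, adjusted p = 0.0774) and held without each of the other libraries.

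C6 was also compared within the Folr2 and Arg1 clusters, and a difference in effect between them was not shown. The AT38 effect on C6 in the Arg1 cluster minus that in the Folr2 cluster was 0.94 ± 1.94 (edgeR interaction, adjusted p = 0.981). In the Folr2 cluster C6 stood at 113 and 123 CPM with AT38 and at 112 and 23.4 CPM with vehicle, so vehicle 1 was level with the AT38 libraries and only vehicle 2 was low (1.02 ± 0.66, adjusted p = 0.806). In the Arg1 cluster it stood at 13 and 16.9 CPM with AT38 and at 0.3 and 6.2 CPM with vehicle, groups apart but not past the threshold (2.03 ± 0.76, adjusted p = 0.408). With the clusters held at fixed UMI shares C6 in macrophages was 25.5 and 30.7 CPM with AT38 and 15.6 and 8.55 CPM with vehicle, a log2 ratio of group means of 1.22, beside 1.93 without. The part of the cluster shares in the C6 difference was not tested further.

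The DNA before the C6 start site is shown because C6 had the largest log2 fold change of the 9 genes in macrophages; it covers chr15:4726960-4727174 on the plus strand (RefSeq, GRCm38.p6), and none of these motifs was found in the C6 promoter.
C6: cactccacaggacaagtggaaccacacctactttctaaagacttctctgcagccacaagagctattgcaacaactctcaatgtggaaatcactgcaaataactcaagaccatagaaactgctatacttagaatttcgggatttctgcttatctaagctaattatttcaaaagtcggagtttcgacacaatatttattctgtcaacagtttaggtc
That no match was found says only that these letters are not in the window.

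**Figure D4:**
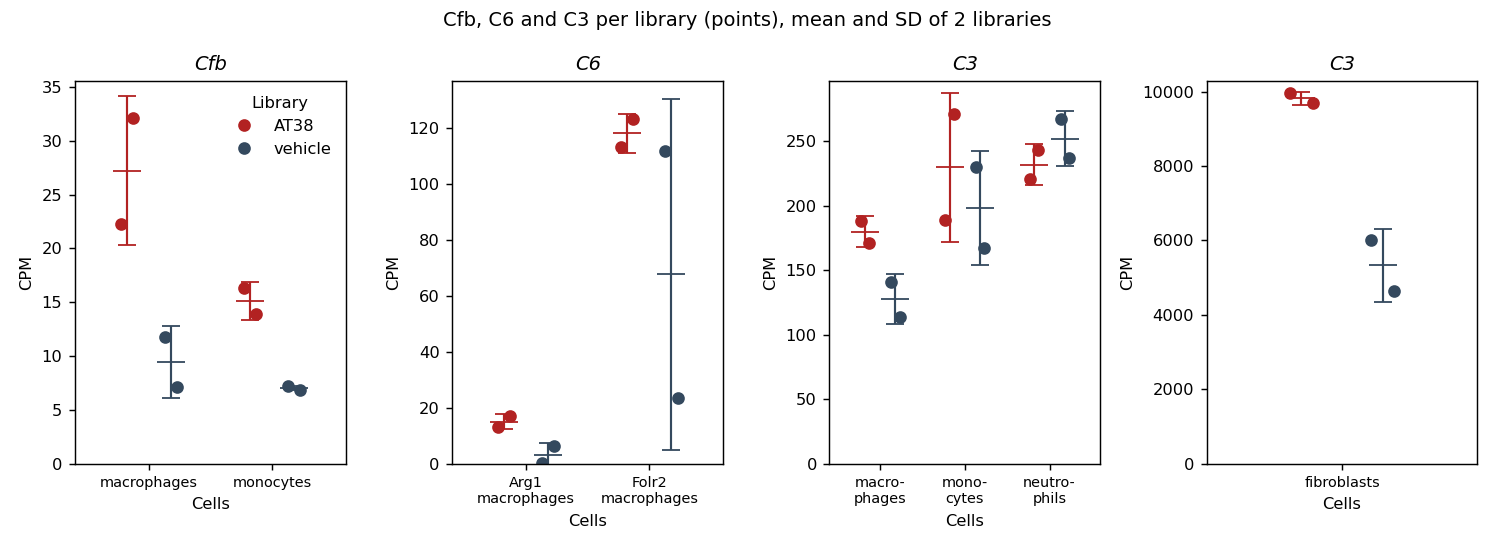
Cfb in macrophages and monocytes, C6 in the Arg1 and Folr2 macrophage clusters, and C3 in macrophages, monocytes, neutrophils and, on its own axis, fibroblasts, in CPM per library (points) with the mean and SD of 2 libraries, AT38 left of vehicle. Cfb lies higher in both AT38 libraries, C6 in the Folr2 cluster is low only in vehicle 2 at 23.4 CPM, and C3 lies higher with AT38 in macrophages and fibroblasts but overlaps in monocytes and neutrophils.

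C3ar1, the receptor of the C3a fragment, lies at chr6:122847138-122856161 on the minus strand. It was a gene of macrophages, at 183 ± 33.6 CPM, and monocytes, at 120 ± 18.8 CPM (SD, n = 4), whose ranges overlapped; mast cells and basophils had 27.6 ± 14.4 CPM and no other type averaged above 7.90 CPM. In macrophages it stood at 184 and 217 CPM with AT38 and at 137 and 193 CPM with vehicle. The groups overlapped, and the log2 fold change of 0.28 ± 0.18 missed the threshold (edgeR adjusted p = 0.678). In monocytes it stood at 111 and 117 CPM with AT38 and at 105 and 147 CPM with vehicle, which also overlapped.

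C5ar1, the receptor of the C5a fragment and a chemotactic receptor of neutrophils, lies at chr7:16246743-16259540 on the minus strand. It averaged 650 ± 111 CPM in neutrophils, 216 ± 16.5 CPM in macrophages and 198 ± 73.2 CPM in monocytes (SD, n = 4). In neutrophils C5ar1 stood at 524 and 590 CPM with AT38 and at 750 and 736 CPM with vehicle. Both AT38 libraries were below both vehicle libraries, and C5ar1 fell by 0.53 ± 0.09 on the log2 scale (edgeR adjusted p = 0.000499). It was the only one of the 7 complement genes tested in neutrophils that was called, against 4.82% of 8431 genes called in either direction and 3.43% called lower. The log2 ratio of the mean CPM was -0.41, since edgeR's library scaling in neutrophils differed between the groups: over all genes tested there the median log2 ratio of mean CPM was 0.13, beside 0.01 in edgeR. The fall stayed past the threshold without each library in turn, at -0.64 to -0.45.

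With neutrophils thinned to 1000 UMIs, 41.2% and 44.1% held a C5ar1 UMI with AT38 and 50.1% and 53.8% with vehicle. Within the neutrophil clusters, named by a leading gene, the change was smaller. In the Siglecf cluster, named for a sialic acid receptor found on tumour-infiltrating neutrophils in mouse, C5ar1 stood at 404 and 447 CPM with AT38 and at 517 and 515 CPM with vehicle (-0.30 ± 0.10, adjusted p = 0.267). In the Lrg1 cluster it stood at 872 and 883 CPM with AT38 and at 1100 and 1030 CPM with vehicle (-0.29 ± 0.12, adjusted p = 0.302). The groups were apart in both clusters, but neither passed the threshold.

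In the Fpr1, Rsad2 and Cd177 clusters the groups overlapped, with log2 fold changes of -0.13, 0.03 and -0.36. No complement gene was called by edgeR or DESeq2 in any of these 5 clusters, where 0.381% (Siglecf), 1.11% (Lrg1), 1.88% (Fpr1), 0.906% (Rsad2) and 0.0609% (Cd177) of all genes were called; at an unadjusted p under 0.05 there were 1, 2, 1, 0 and 0 complement genes. The Siglecf cluster, at 467 CPM of C5ar1 over its cells, was 42.6% and 41.3% of neutrophils with AT38 and 23.8% and 28.5% with vehicle. The Lrg1 cluster, at 1004 CPM, was 23.1% and 22.6% with AT38 against 33.8% and 36.2% with vehicle. C5ar1 was at a like or lower level in the Rsad2 (466 CPM) and Cd177 (316 CPM) clusters. A further cluster of 65 cells, with Camp among its leading genes, had 354 CPM. It was too small to test and is part of the fixed shares below. The clusters were drawn from the same cells, so their sizes are given as values beside the level and not as a test. With the clusters held at fixed UMI shares C5ar1 was 573 and 627 CPM with AT38 and 708 and 688 CPM with vehicle, a log2 ratio of -0.22, beside -0.41 without. The 8 neutrophil markers summed to 61432 and 61932 CPM in AT38 neutrophils and to 70769 and 75314 CPM in vehicle neutrophils, all 8 detected. Their part in the C5ar1 difference was not tested.

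**Figure D5:**
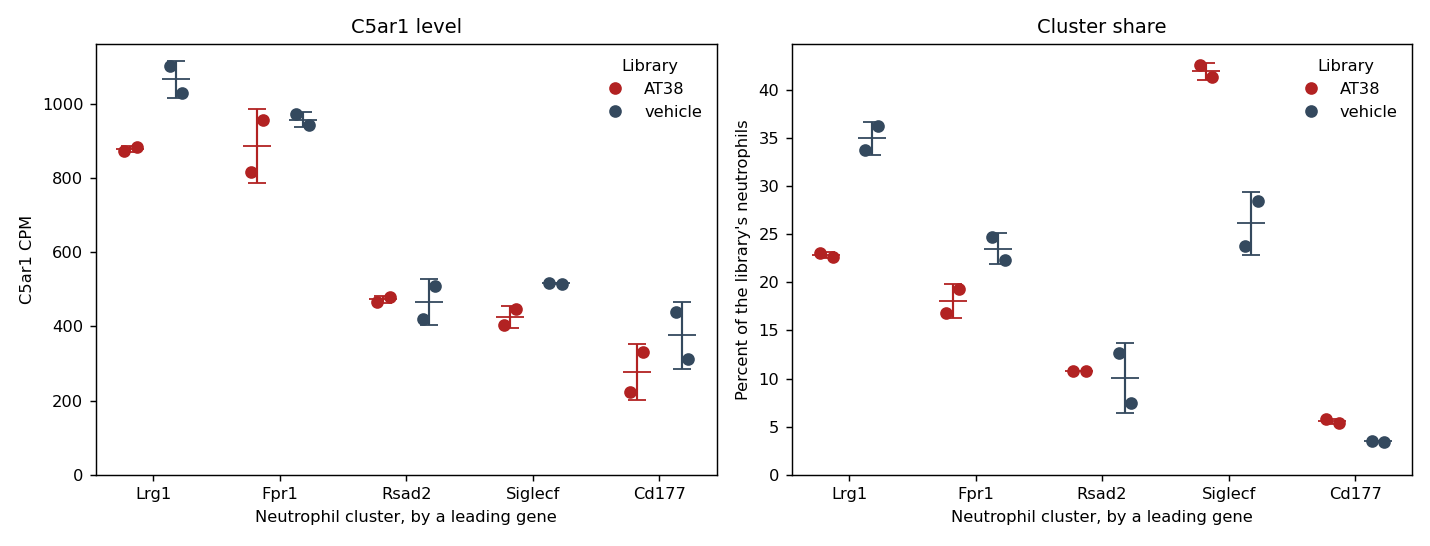
C5ar1 in CPM per library (points) with the mean and SD of 2 libraries in 5 neutrophil clusters (left), and the percent of neutrophils that each cluster makes up (right), AT38 left of vehicle. C5ar1 lies lower in both AT38 libraries in the Lrg1 and Siglecf clusters, and the Siglecf cluster is 42.6% and 41.3% of neutrophils with AT38 against 23.8% and 28.5% with vehicle.

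C5ar1 did not pass in other myeloid cells. In macrophages it stood at 191 and 226 CPM with AT38 and at 222 and 224 CPM with vehicle, which overlapped (-0.09, edgeR adjusted p = 0.888). In monocytes it stood at 187 and 126 CPM with AT38 and at 300 and 180 CPM with vehicle, which overlapped too (-0.57 ± 0.30, adjusted p = 0.813); it passed in 2 of 12 alternatives, without AT38 1 (-0.89, adjusted p = 0.0144) and with the replicate number as a block (-0.61, adjusted p = 0.0266). The 8 neutrophil markers summed in these monocytes to 815 and 285 CPM with AT38, with 8 and 6 of them detected, and to 2652 and 1122 CPM with vehicle, with all 8 detected, and their part in the C5ar1 level was not tested. In cDC2 it stood at 6.12 and 3.24 CPM with AT38 and at 15.8 and 11.7 CPM with vehicle, groups apart but short of the threshold (-1.44 ± 0.36, adjusted p = 0.0824). The AT38 effect in phagocytes minus that in neutrophils was 0.35 ± 0.12 (adjusted p = 0.155), so a difference in the C5ar1 response between these cell types was not shown.

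In the other cell types edgeR called none of the tested complement genes. The counts were 0 of 8 in all dendritic cells together, 0 of 5 in cDC1, 0 of 7 in cDC2, 0 of 7 in mature dendritic cells, 0 of 3 in B cells, 0 of 6 in T, NK and innate lymphoid cells, 0 of 1 in mast cells and basophils and 0 of 7 in epithelial cells. The shares of all tested genes called there were 0.0268%, 0.212%, 0.499%, 0%, 0.627%, 0.0824%, 0.793% and 0.0198% in the same order. At an unadjusted p under 0.05 there were 2 in cDC1, 1 in cDC2, 1 in B cells and 0 in the others, and DESeq2 called 0 in each. With no filter on low counts edgeR called 1 each in all dendritic cells together, in cDC2 and in mast cells and basophils. In dendritic cells the AT38 effect was also set against that in phagocytes, and none of the 9 genes differed (0.0686% of 11656 genes did, and 2 of the 9 had an unadjusted p under 0.05, C3 and Cfb).

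Over all kept cells of a library, as a bulk sample would show, only C5ar1 was called among the 9, against 2.14% of 14511 genes called in either direction and 1.65% called lower. It stood at 95.2 and 92.2 CPM with AT38 and at 151 and 161 CPM with vehicle, and fell by 0.73 ± 0.06 on the log2 scale (edgeR adjusted p = 0.0024). Neutrophils were 27.2% and 26.9% of kept cells with AT38 and 35.1% and 35.5% with vehicle, and over all cells fewer neutrophils and less C5ar1 RNA per neutrophil cannot be told apart. C6 stood at 5.3 and 3.5 CPM with AT38 and at 1.9 and 1.7 CPM with vehicle (1.31 ± 0.27, adjusted p = 0.0577). C1qa, at 364 and 264 CPM with AT38 and 235 and 325 CPM with vehicle, overlapped between groups over all cells, unlike in macrophages.

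Of 43 other genes of the pathway that were listed, 42 were in the matrices and 19 could be tested in macrophages. Of these 1 was higher and 1 was lower with AT38, beside 1.14% of all genes called there in either direction. Fcna, the gene of the lectin pathway recognition protein ficolin A, stood at 80.5 and 56.7 CPM with AT38 and at 35.9 and 27.2 CPM with vehicle. It rose by 1.16 ± 0.19 on the log2 scale (edgeR adjusted p = 0.0278). Fcna was not called higher in mononuclear phagocytes, nor within the Arg1 or the Folr2 cluster. It is a leading gene of the Folr2 cluster, which was a larger part of phagocytes in both AT38 libraries. The part of the cluster shares in the Fcna difference was not tested. Itgam, the alpha chain of complement receptor 3, stood at 214 and 183 CPM with AT38 and at 441 and 432 CPM with vehicle and fell by 1.13 ± 0.11 (adjusted p = 0.00322). Itgax, the alpha chain of complement receptor 4, stood at 211 and 291 CPM with AT38 and at 143 and 185 CPM with vehicle, groups apart but short of the threshold (0.61 ± 0.19, adjusted p = 0.278).

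The partners of the classical convertase were also higher in both AT38 libraries without passing. C4b stood at 202 and 104 CPM in macrophages with AT38 and at 33.5 and 67.7 CPM with vehicle (1.59 ± 0.46, edgeR adjusted p = 0.352), and C2 stood at 10.0 and 6.69 CPM with AT38 against 3.02 and 2.57 CPM with vehicle (1.62 ± 0.38, adjusted p = 0.106). The median log2 fold change of the 19 genes was 0.04. None of the terminal components outside the 9 genes had enough counts for a test in macrophages or neutrophils.

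In neutrophils 2 of 15 tested pathway genes were called, both lower, beside 4.82% of all genes called there in either direction and 3.43% called lower: Itgam, at 435 and 442 CPM with AT38 and 494 and 520 CPM with vehicle (-0.33, edgeR adjusted p = 0.0276), and Clu, the gene of the fluid-phase inhibitor clusterin, at 27.8 and 15.2 CPM with AT38 against 37.9 and 38.3 CPM with vehicle (-0.93 ± 0.22, adjusted p = 0.0127). Clu was also lower in T, NK and innate lymphoid cells (-1.83 ± 0.21, edgeR adjusted p = 0.000919). It stood there at 8.20 and 8.24 CPM with AT38 and at 37.0 and 24.0 CPM with vehicle. Clu is a leading gene of the epithelial cells, which were 1.14% and 1.13% of kept cells with AT38 and 2.41% and 1.65% with vehicle. The part of the epithelial cells in these Clu levels was not tested.

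The genes whose levels over 11 cell types were most like those of the complement genes were sought by Pearson correlation of log2(CPM + 1), given as a description over types that share libraries. The mean of the C1q chains was most like Tmem86a (r = 0.972) and Ccl12 (0.962), the gene of a chemokine. C6 was most like Marco (0.977), a scavenger receptor gene, Cd5l (0.967) and Fcna (0.937). C5ar1 was most like Slc11a1 (0.975), a metal transporter gene of phagocytes, Cd300ld (0.968) and Arg2 (0.968). C3 was most like Rhou (0.948), Cfb was most like Ang (0.968), Cfp was most like Cd300a (0.924), and C3ar1 was most like Tmem86a (0.958).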

How the data were processed

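Single-cell RNA libraries (10x 3′ v3.1) were processed by the submitters with Cell Ranger 3.1.0 against mm10, per the submitters' processing notes; the values are raw UMI counts per gene and barcode as deposited by the authors. The matrices hold no cell type names. Kept cells had 200 or more genes, 500 or more UMIs and no more than 10% of UMIs from mitochondrial genes, and 683 doublets (3.79% of 18001 barcodes) were removed by scrublet score at 0.8% per 1000 barcodes; scrublet's own threshold marked 0.0778%. Counts were scaled to 10000 per cell and clustered with scanpy 1.11.5 (2000 variable genes, 30 components, 15 neighbours, Leiden resolution 1), the 9 genes left out. A cluster needed at least 3 markers of a type in 10% of its cells; these naming thresholds were set with the clusters in view, and 2 clusters (402 cells) stayed unnamed. Separate T cell and NK cell classes had been planned, but clusters mixed their markers and were joined with innate lymphoid cells.

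UMIs were summed per library and cell type and tested with edgeR 4.0.16 in R 4.3.3 (quasi-likelihood, robust, TMM, filterByExpr, two-sided, adjusted p under 0.05), where each library held at least 20 cells; an exact permutation test of 2 against 2 libraries cannot go below p = 0.333. Every fit was made on all genes. The edgeR fit of AT38 against vehicle was checked on counts simulated from mononuclear phagocytes. The interaction, replicate block and DESeq2 fits were not checked on simulated data. DESeq2 1.42.0, other filters, clusterings and thinning to 2000 UMIs were alternatives. Shares and intervals cover counting error only. Gene positions are from GENCODE M21 and start sites from RefSeq; proteins were not analysed here. The named genes are the 9 members, the pathway genes that passed the test or partner them, and the genes most like them among those of at least 10 CPM. The members and lists were chosen with earlier results of these data known, and cluster-level comparisons and fixed cluster shares were added after seeing the data. One of the genes most like the C1q chains and 1 motif are not reported here.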

Additional observations from a re-analysis of the deposited data

Results flagged for a closer look

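The response of C3 to AT38 differed between cell types by a test of the difference itself: the log2 fold change in mononuclear phagocytes was higher than that in neutrophils by 0.72 ± 0.13 (edgeR interaction with library terms, adjusted p = 0.00159), with C3 higher in both AT38 libraries in phagocytes and overlapping between groups in neutrophils.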

How the results depend on the processing

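Over the alternatives, C6 kept its call in 12 of 13 in macrophages, C1qc in 10, C1qa in 9 and Cfb in 6, and of 14 in mononuclear phagocytes C6 kept it in 13, C1qa and C1qc in 12 each and Cfb in 10; C5ar1 in neutrophils kept its call in all 13 that used all neutrophils. Leaving out each library in turn, the number of genes called was 13 to 189 in phagocytes (121 with all libraries), 7 to 189 in macrophages (121), 26 to 91 in monocytes (18) and 254 to 439 in neutrophils (406). The number of the 9 complement genes called was then 0 to 5 in phagocytes (4), 0 to 5 in macrophages (4), 0 to 1 in monocytes (0), 1 to 3 in neutrophils (1), 0 to 4 in cDC2 (0) and 1 to 2 over all kept cells (1); the highest counts came without AT38 1, or without AT38 2 over all kept cells. With no filter on low counts 469 genes were called in phagocytes, 494 in macrophages and 91 in monocytes, and of the complement genes 6 in phagocytes, 6 in macrophages, 1 each in all dendritic cells, cDC2, and mast cells and basophils, 2 in the Mgl2 cluster and 2 over all kept cells. DESeq2 called 7 genes in monocytes, 213 in neutrophils and 2 complement genes over all kept cells. In monocytes 8 genes were called with at least 500 genes per cell and 11 without doublet removal.

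The library numbers pair nothing the labels name; the correlation of same-numbered deviations was 0.18 in phagocytes, -0.009 in neutrophils and -0.10 over all kept cells. With the replicate number as a block 397 genes were called in phagocytes, 681 in macrophages and 109 in monocytes, with 1 complement gene in monocytes. Directions of small, uncalled log2 changes reversed. With at least 500 genes per cell C1qa was 0.191 and C3ar1 0.0191 in monocytes. Without its 5 highest cells C3 over all kept cells was -0.170. Changes called in a whole cell type also had the opposite sign in a cluster alone. C1qa, called in macrophages, was -0.0142 in the Folr2 cluster, and C5ar1, called in neutrophils, was 0.0305 in the Rsad2 cluster. Over the 4 omissions of a library, C3ar1 in phagocytes was -0.0371 to 0.451, Cfp in macrophages -0.163 to 0.0268, C5ar1 in macrophages -0.244 to 0.0523, C1qa in monocytes -0.293 to 0.0527, C3 in monocytes -0.0608 to 0.480, C3ar1 in monocytes -0.358 to 0.0942 and Cfp in neutrophils -0.221 to 0.0228. Over all kept cells C1qa was -0.0809 to 0.418, C1qb -0.0930 to 0.366, C3 -0.0573 to 0.457 and C3ar1 -0.525 to 0.192. Differences between cell types did so too: Cfp in phagocytes minus neutrophils -0.194 to 0.190 and minus dendritic cells -0.270 to 0.0437, C3 in macrophages minus monocytes -0.0206 to 0.595, and in the Arg1 minus the Folr2 cluster C3 -0.582 to 0.890, Cfp -0.470 to 0.131 and C3ar1 -0.168 to 0.499. The cause of these moves was not tested. Counts limit Cfb and C6 most, and C1q levels near those of lymphoid cells cannot be read as expression.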
